A study of Mus musculus with 2 samples.

Results

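Interferon gamma, its 2 receptor chains, the 2 kinases bound to them and 2 feedback inhibitors were followed across the cell classes of orthotopic pancreatic tumors in mice. The genes are Ifng, Ifngr1, Ifngr2, Jak1, Jak2, Socs1 and Socs3, taken by gene symbol, and they are 7 of the 32285 genes counted. They were chosen on their levels over the cell classes of these same libraries, so those levels are a description. The data are unique molecular identifier (UMI) counts from single cells, where each UMI marks 1 captured RNA molecule, from 1 library labelled FLOX and 1 labelled MCT1-KO. Both tumors were raised in male mice by injecting KPC cells, a mouse pancreatic cancer line, in Matrigel under the pancreatic capsule. MCT1 is the lactate transporter encoded by Slc16a1. The MCT1-KO label stands for Col1a2-CreERT2 mice in which tamoxifen removes MCT1 from cells that use the Col1a2 promoter, that is fibroblasts and pancreatic stellate cells (PSCs). The FLOX label stands for the floxed control, and the sources used here do not say whether that animal received tamoxifen or corn oil alone. The ages of the animals and the number pooled in each library were not given either.

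Interferon gamma is secreted mainly by activated T cells and natural killer (NK) cells. It binds a receptor made of IFNGR1, the ligand-binding chain that carries JAK1, and IFNGR2, the chain that carries JAK2, and both are needed for a signal. The kinases switch on the interferon gamma response genes, among them Socs1, whose product inhibits the receptor kinases. SOCS3 is a related inhibitor best known for acting on gp130 cytokine receptors such as that of IL-6.

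The promoter windows of the ligand and of both inhibitors are shown because they hold matches to the motif families bound by the factors of this pathway. Each window is the 250 bases before the RefSeq start in GRCm38.p6, written 5′ to 3′ on the gene's strand. Capitals mark TTCNNNGAA, the STAT-type motif, GAAA followed by any 2 bases and GAAA, the interferon-response type, or TATAAA, the TATA box. The annotated genes in GRCm38 are Ifngr1 at chr10:19591949-19610229 and Ifngr2 at chr16:91547072-91565623 on the plus strand, Jak2 at chr19:29251828-29313080 on the plus strand, Jak1 at chr4:101152367-101265282, Socs1 at chr16:10782240-10785536 and Socs3 at chr11:117966079-117970047 on the minus strand. The Ifng window is chr10:118440796-118441045 on the plus strand and overlaps no annotated exon. The Socs1 window is chr16:10785537-10785786 on the minus strand and lies outside any annotated gene. The Socs3 window is chr11:117969367-117969616 on the minus strand and lies within the longer annotated Socs3 gene, over intron sequence and part of an exon of a noncoding Socs3 transcript.
Ifng: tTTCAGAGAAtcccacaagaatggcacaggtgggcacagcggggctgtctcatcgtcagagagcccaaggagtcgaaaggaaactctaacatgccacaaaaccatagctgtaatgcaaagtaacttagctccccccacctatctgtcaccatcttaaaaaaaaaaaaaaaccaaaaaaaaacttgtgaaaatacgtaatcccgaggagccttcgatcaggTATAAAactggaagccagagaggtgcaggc
Socs1: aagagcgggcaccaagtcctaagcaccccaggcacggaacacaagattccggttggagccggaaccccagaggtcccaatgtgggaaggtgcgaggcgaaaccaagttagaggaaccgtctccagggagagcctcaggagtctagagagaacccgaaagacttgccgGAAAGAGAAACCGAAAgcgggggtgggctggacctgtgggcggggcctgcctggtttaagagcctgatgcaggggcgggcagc
Socs3: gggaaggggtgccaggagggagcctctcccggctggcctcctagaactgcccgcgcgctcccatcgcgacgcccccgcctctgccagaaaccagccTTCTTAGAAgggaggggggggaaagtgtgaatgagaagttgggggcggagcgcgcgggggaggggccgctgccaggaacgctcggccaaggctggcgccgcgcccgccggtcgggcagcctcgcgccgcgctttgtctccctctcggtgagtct
The Ifng window held TTCAGAGAA starting 249 bases and TATAAA starting 30 bases before the start. In the Socs1 window GAAAGAGAAA and GAAACCGAAA overlapped, starting 83 and 77 bases before the start, and in the Socs3 window TTCTTAGAA started 154 bases before it. The corresponding windows of Ifngr1, Ifngr2, Jak1 and Jak2 held none of the 3 motifs. Among 32851 promoters, 7.02% held TTCNNNGAA and 2.98% held the interferon-response motif on either strand, and 7.59% held TATAAA on the gene's strand. A match of letters is a description of the sequence and not a measured binding site.

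Over all barcodes, FLOX had 177334432 UMIs and the library labelled MCT1-KO had 151118092. The analysis used 8739 cells of the FLOX library and 11689 of the MCT1-KO library, with medians of 4069 and 3706 UMIs per cell. Cells were put into classes by fixed marker genes, so each class name means cells resembling that type, and 21.2% and 25.8% of cells stayed unassigned. The FLOX and MCT1-KO libraries had 2510 and 2001 macrophages, 2552 and 4508 cells of the KPC or ductal epithelium, 757 and 707 neutrophils, 493 and 414 T cells, and 223 and 373 cells of the fibroblast or PSC class. Dendritic cells, monocytes and endothelial cells numbered from 55 to 110 per library. Doublets were not removed, 88 named cells lay near the limit of the class rule, and the libraries shared 59 cell barcodes. The targeted gene went against the label. In the fibroblast or PSC class, Slc16a1 had 54 UMIs (24.8 counts per 1000000 UMIs, CPM) in FLOX and 103 UMIs (35.2 CPM) in MCT1-KO, a ratio of 1.42 (95% interval 1.01 to 2.01). Whether the counted 3′ reads lie in the removed part is not known, so the second library is called the library labelled MCT1-KO. That library carried more free acinar RNA, with acinar marker genes at 13420 CPM in empty barcodes against 260 CPM in FLOX. FLOX was higher in stress and dissociation genes, with a summed 5455 against 2127 CPM in CD8+ T cells. With 1 library per label, every difference below is between these 2 libraries and has no replicate check, and all intervals are 95% and cover counting error only. In the other named classes with at least 20 Slc16a1 UMIs per library the ratio was also above 1, so these counts give no sign of the deletion. Whether the labels are exchanged was not tested, and every direction given here rests on them.

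T cells and NK cells held the Ifng UMIs in both libraries. Of 945 Ifng UMIs in the kept FLOX cells, these classes held 92.0% (90.0 to 93.6%), and of 193 in the library labelled MCT1-KO they held 90.7% (85.7 to 94.4%). With both libraries summed, the Ifng level was 406 CPM (379 to 434) in CD8+ T cells, 171 CPM (140 to 208) in CD4+ T cells, 156 CPM (103 to 225) in NK cells and 129 CPM (103 to 160) in other T cells. These sums are dominated by FLOX. In the library labelled MCT1-KO alone, CD8+ T cells had the lowest of the 4 levels, at 109 CPM against 129 to 160 CPM, with overlapping intervals. In macrophages the level was 1.69 CPM and in the KPC or ductal epithelium 0.391 CPM. Both lay below the level in empty barcodes, which was 7.29 CPM in FLOX and 2.10 CPM in the library labelled MCT1-KO. Ifng was not detected in B cells, plasma cells, monocytes, endothelial cells or acinar cells. In the reference annotation of GRCm38, Ifng lies at chr10:118441046-118445892 and shares this stretch with Gm49751 on the same strand, so reads of that gene could not be told apart.

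**Figure D1:**
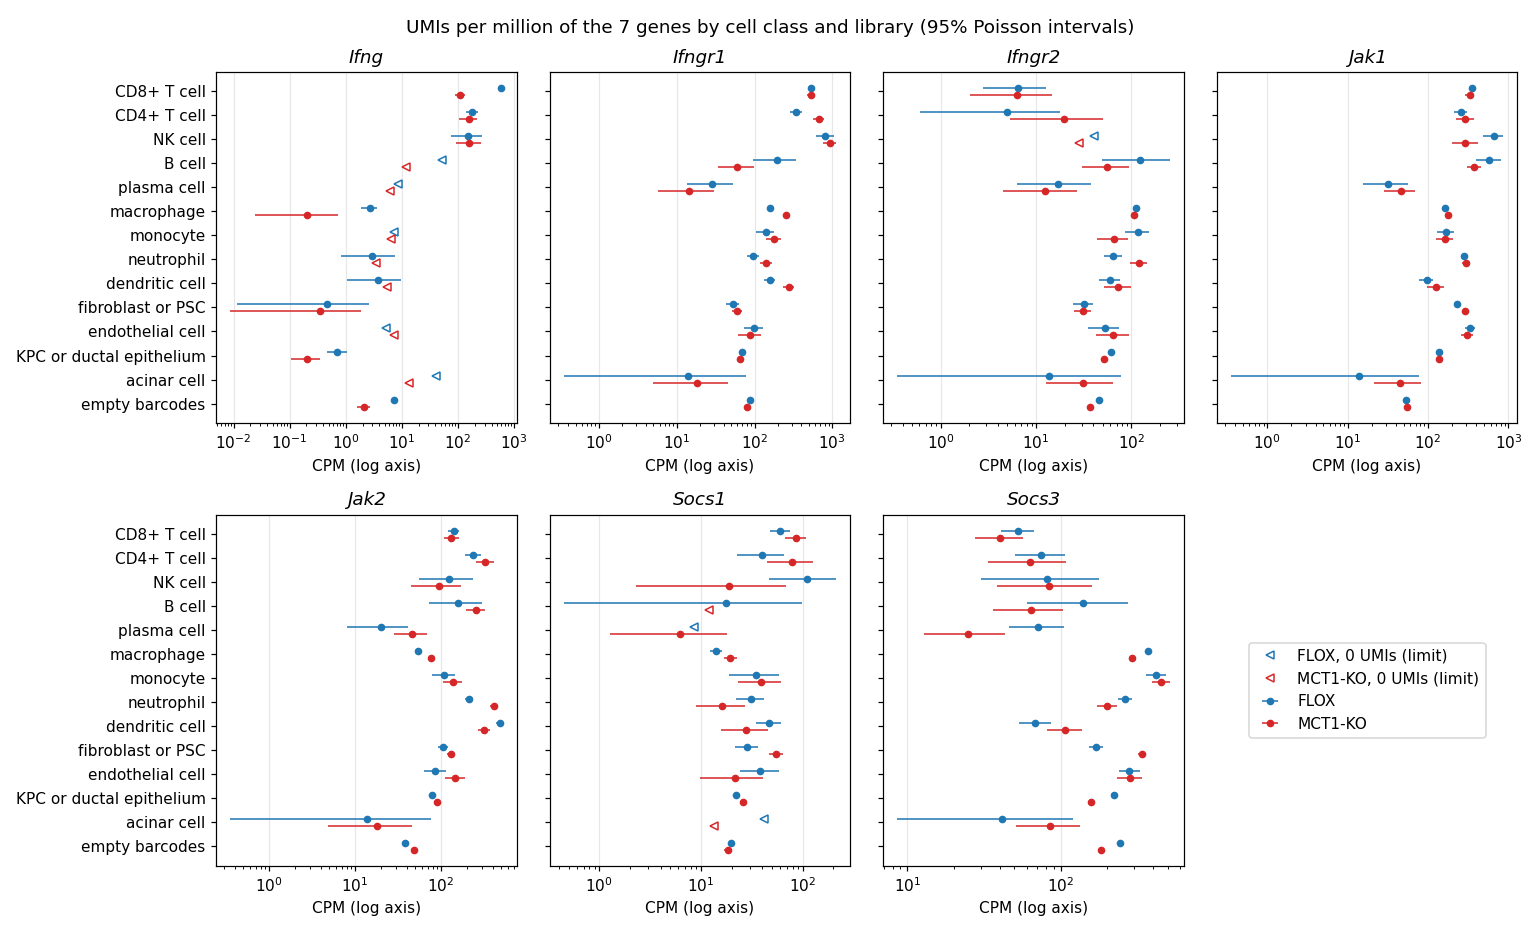
Level of each of the 7 genes (CPM, log axis) by cell class, FLOX in blue and the library labelled MCT1-KO in red, with 95% counting intervals as bars and open triangles at the limit that 0 UMIs allow. Ifng lies far above the other classes in T and NK cells, whereas Jak1 and Socs3 are spread over many classes.

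Among the lymphocyte classes, Ifng differed between the libraries in CD8+ T cells. The 315 FLOX cells held 742 Ifng UMIs, or 595 CPM (553 to 639), and the 213 cells of the library labelled MCT1-KO held 87 UMIs, or 109 CPM (87.6 to 135). The ratio of MCT1-KO over FLOX was 0.184 (0.145 to 0.230). In CD4+ T cells Ifng stood at 180 and 156 CPM, a ratio of 0.867 (0.553 to 1.33). In other T cells the levels were 130 and 129 CPM with a ratio of 0.995 (0.629 to 1.57). NK cells, with 24 and 37 cells, held 11 and 17 UMIs, and the ratio was 1.07 (0.471 to 2.52). Outside the CD8+ cells the intervals therefore included 1 and were wide. Macrophages had 40 Ifng UMIs in FLOX and 2 in the library labelled MCT1-KO, and the ratio in empty barcodes was 0.287 (0.209 to 0.389).

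An Ifng UMI was seen in 38.4% (33.0 to 44.0%) of the FLOX CD8+ T cells and in 17.8% (12.9 to 23.7%) of those of the library labelled MCT1-KO. After each cell was thinned to 1000 UMIs, which left out 7 and 9 shallower cells, the shares were 19.5% (15.2 to 24.4%) and 8.82% (5.31 to 13.6%). In macrophages, which are not known as a main source of Ifng, 0.466% of the cells of both libraries had a UMI at median depths of 5850 and 4818 UMIs, while CD8+ T cells had medians of 3129 and 2883. In the KPC or ductal epithelium the share was 0.425% at medians of 16629 and 14885. The CD8+ shares thus lay well above this background in both libraries. The level among positive cells was very uneven in FLOX. A single FLOX cell held 231 Ifng UMIs, the next held 106, and 4 cells held 50% of all Ifng UMIs of the class. In FLOX 12 cells had 10 or more Ifng UMIs, and in the library labelled MCT1-KO 0 cells did, with a highest value of 8. The FLOX cells with 231 and 106 UMIs also carried 3 and 4 markers of another class, and whether these barcodes hold more than 1 cell was not tested. Without the cell with most Ifng UMIs in each library the ratio was 0.241, and without the 5 such cells it was 0.236 (0.173 to 0.317).

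**Figure D2:**
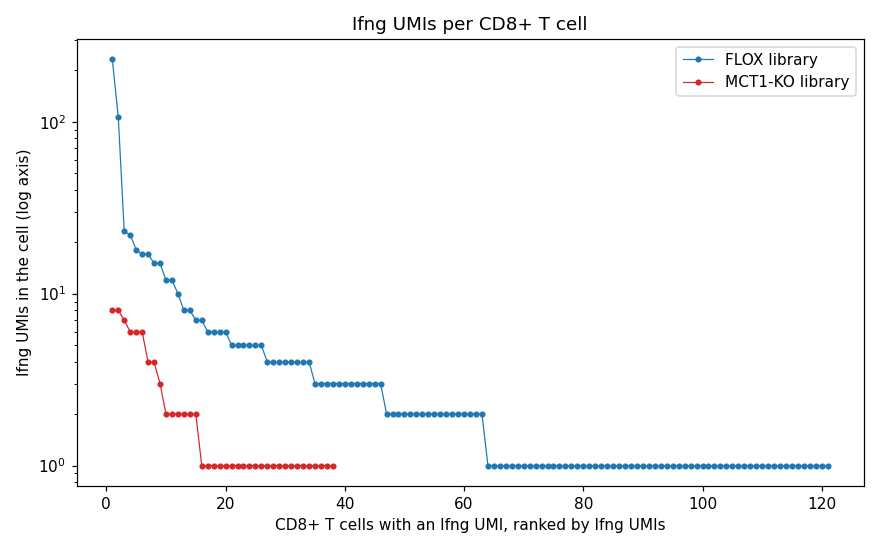
Ifng UMIs (log axis) in each CD8+ T cell with at least 1, ranked from the highest, for FLOX in blue and the library labelled MCT1-KO in red. FLOX has 121 such cells and reaches 231 UMIs, and the library labelled MCT1-KO has 38 and reaches 8.

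Leaving out CD8+ T cells with 3 or more markers of another class reduced the gap. The remaining 246 FLOX cells stood at 339 CPM and the remaining 102 cells of the library labelled MCT1-KO at 166 CPM, a ratio of 0.489. The 69 FLOX cells left out held 453 of the 742 Ifng UMIs, at 1149 CPM (1046 to 1260), and included both highest cells. The 111 cells left out in the library labelled MCT1-KO held 36 Ifng UMIs, at 73.8 CPM (51.7 to 102). The cells left out in the library labelled MCT1-KO were almost all marked by acinar genes, with 105 of its CD8+ T cells carrying 3 or more acinar markers against 6 in FLOX. Stress genes moved with the library as well. Among CD8+ T cells at or below the median stress sum, Ifng was 219 CPM in FLOX and 91.7 CPM in the library labelled MCT1-KO, a ratio of 0.419 (0.294 to 0.595). Above the median the levels were 740 and 199 CPM, with a ratio of 0.269 (0.174 to 0.397). The strata were uneven, with 84 FLOX cells and 180 of the library labelled MCT1-KO in the lower and 231 and 33 in the upper. The upper stratum of the library labelled MCT1-KO held 26 Ifng UMIs. The level was thus lower in the library labelled MCT1-KO within each stress stratum, and the part of dissociation in the difference was not tested.

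The gap was wider in CD8+ T cells with Pdcd1, the gene of the PD-1 checkpoint receptor, or with Gzmb, which encodes the cytotoxic protease granzyme B. In cells with a Pdcd1 UMI, Ifng was 727 CPM in 213 FLOX cells and 97.8 CPM in 108 cells of the library labelled MCT1-KO, a ratio of 0.135 (0.0982 to 0.180). In cells without Pdcd1 the levels were 213 and 128 CPM, and the ratio was 0.602 (0.395 to 0.905). For Gzmb the levels in positive cells were 969 CPM and 59.8 CPM with a ratio of 0.0617 (0.0388 to 0.0936). In cells without Gzmb they were 296 and 156 CPM with a ratio of 0.526 (0.391 to 0.700). The intervals of the positive and negative cells did not overlap for either gene, although the few FLOX cells with very high Ifng weigh on the positive groups. Both highest FLOX cells carried Pdcd1 and Gzmb UMIs. Cells with a cycle gene (Mki67, Top2a or Cdk1) stood at 890 and 142 CPM, and cells without one at 308 and 81.4 CPM. Regulatory T cells were not compared. Foxp3, their defining factor, was seen in 3 CD4+ T cells per library, and 23 of its 32 T cell UMIs in FLOX and 15 of 19 in the library labelled MCT1-KO lay in the other T cells.

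Within each library, CD8+ T cells with an Ifng UMI were compared with those without one. Their median depths were 4061 against 2861 UMIs in FLOX and 3315.5 against 2791 in the library labelled MCT1-KO, so the comparison used CPM. Lag3, an inhibitory receptor of activated T cells, was higher in Ifng-positive cells in both libraries, at ratios of 1.38 (1.06 to 1.79) and 2.01 (1.29 to 3.11). Gzmb was likewise higher in CPM, at 1.42 (1.18 to 1.72) and 1.58 (1.26 to 1.97). By cell this held in FLOX alone. There an Ifng UMI was seen in 48.1% of cells with Gzmb and 33.6% of those without. In the library labelled MCT1-KO the shares were 15.9% (8.72 to 25.6%) and 19.1% (12.7 to 26.9%). The intervals of the shares overlapped in both libraries. Irf8, a transcription factor of activated CD8+ T cells, had ratios of 2.53 (1.74 to 3.75) and 1.62 (1.03 to 2.49). Prf1, the gene of the pore protein perforin, was 2.28 (1.65 to 3.20) in FLOX and 1.36 (0.848 to 2.13) in the other library. Gzma, on the same cytotoxic list as Gzmb and Prf1, was lower in Ifng-positive cells, at 0.475 (0.315 to 0.707) in FLOX. In the library labelled MCT1-KO, Gzma had 0 UMIs in Ifng-positive cells and 58 in the others, a ratio of up to 0.209. Pdcd1 was at 0.795 (0.675 to 0.935) in FLOX and 0.9825 (0.719 to 1.33) in the other library. For Nkg7, also on the cytotoxic list, and the checkpoint genes Havcr2 and Tigit, the intervals included 1 in both libraries. Ifngr1 and Jak1, of the receptor complex, were lower in Ifng-positive cells, with Ifngr1 at 0.698 (0.596 to 0.816) and 0.659 (0.504 to 0.851) and Jak1 at 0.742 (0.611 to 0.900) and 0.729 (0.523 to 0.999). Socs1 was at 0.887 (0.547 to 1.43) in FLOX and 2.51 (1.504 to 4.17) in the library labelled MCT1-KO.

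The genes known to drive Ifng in lymphocytes were compared in the same CD8+ T cells. Of the 10 on the list, among them Tbx21 and Eomes, which encode T-box factors of effector cells, and the IL-12 and IL-18 receptor chains, 9 had at least 50 UMIs and 0 passed 1.5-fold in either direction, where 6.11% of all genes were higher and 10.6% lower. Their median ratio was 0.982, against 0.972 over all 5142 genes with at least 50 UMIs in the class. Of the 6 cytokines that induce Ifng, 4 had at least 50 UMIs in macrophages, with 2 lower, 0 higher and a median ratio of 0.788, where 9.72% of all genes were lower. Il12b, the p40 subunit of IL-12 and IL-23, stood in macrophages at 52.7 CPM in FLOX and 16.5 CPM in the library labelled MCT1-KO, a ratio of 0.313 (0.263 to 0.371). Il15, which sustains CD8+ T and NK cells, was 14.4 and 8.27 CPM in the same class with a ratio of 0.574 (0.440 to 0.744). Il18, another cytokine that drives Ifng, was 36.9 and 44.2 CPM with a ratio of 1.20 (1.05 to 1.36), and Il27 was 14.6 CPM in both libraries with a ratio of 1.002 (0.806 to 1.24). In dendritic cells the summed level of the 6 cytokines was 403 and 315 CPM, a ratio of 0.782 (0.650 to 0.936). Most of this sum was Il12b, at 356 and 284 CPM with a ratio of 0.798 (0.656 to 0.965). It was the only 1 of the 6 with at least 50 UMIs in that class.

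Ifngr1, the ligand-binding chain, had its highest level in the classes that also held Ifng. It stood at 818 and 930 CPM in the NK cells of FLOX and of the library labelled MCT1-KO, and at 506 and 591 CPM in T cells. Dendritic cells and macrophages followed with 197 CPM (176 to 220) and 195 CPM (190 to 201) over both libraries, which did not differ beyond counting error. In the KPC or ductal epithelium the level was 68.6 and 65.1 CPM, and in the fibroblast or PSC class 52.7 and 59.1 CPM. These values lay below the empty barcodes, which had 86.4 and 80.7 CPM. The chain was higher in the library labelled MCT1-KO in macrophages, at 157 against 253 CPM with a ratio of 1.61 (1.52 to 1.70), and in dendritic cells, at 157 against 276 CPM with a ratio of 1.76 (1.40 to 2.21). CD4+ T cells also differed in CPM, at 344 and 666 CPM with a ratio of 1.94 (1.52 to 2.47). The Ifngr1 counts themselves were close, with 138 UMIs in 67 FLOX cells and 137 in 69 cells of the library labelled MCT1-KO. Median depths of these CD4+ T cells were 4507 UMIs in FLOX and 2510 in the library labelled MCT1-KO. After thinning to equal depth, 35.8% and 47.0% of them had an Ifngr1 UMI. The part of depth in the CD4+ ratio was not tested. CD8+ T cells stood at 535 and 528 CPM with a ratio of 0.987 (0.871 to 1.12). The ratio became 0.638 with free RNA subtracted and the level rescaled to the total left. The share taken as free was larger in FLOX, and this rescaling alone lowers the ratio of every gene of the class.

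Ifngr2 is the signal-transducing chain. Macrophages stood at 112 CPM in FLOX and 107 CPM in the library labelled MCT1-KO. Monocytes stood at 116 and 65.0 CPM (ratio 0.560, 0.342 to 0.904). Neutrophils differed the other way, at 63.9 and 119 CPM (ratio 1.86, 1.39 to 2.51). The KPC or ductal epithelium had 61.2 and 52.2 CPM, with 45.8 and 36.8 CPM in empty barcodes. T cells stood far lower, at 8.05 and 15.3 CPM, and CD8+ T cells at 6.42 and 6.28 CPM. NK cells had 0 UMIs, which allows a level of up to 16.7 CPM over both libraries. T and NK cells therefore combined the highest Ifngr1 levels with low Ifngr2 levels, whereas macrophages had a higher level of both chains than the KPC or ductal epithelium or the fibroblast or PSC class.

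Both chains were rarely seen in the same cell at equal depth. After thinning to 1000 UMIs, 72 of 4218 macrophages (1.71%, 1.34 to 2.14%) had a UMI of each. The share was 0.466% (0.127 to 1.19%) in T cells and 0.327% (0.205 to 0.494%) in the KPC or ductal epithelium. Among CD8+ T cells it was 0 of 512, with an upper limit of 0.718%, and among NK cells 0 of 61, with an upper limit of 5.87%. Without thinning, the shares were 26.5% in macrophages, 2.87% in T cells and 27.8% in the KPC or ductal epithelium, whose median depths were 5850 and 4818, 3063 and 2476, and 16629 and 14885 UMIs. At 1000 UMIs per cell a missing UMI does not show that the chain is absent.

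**Figure D3:**
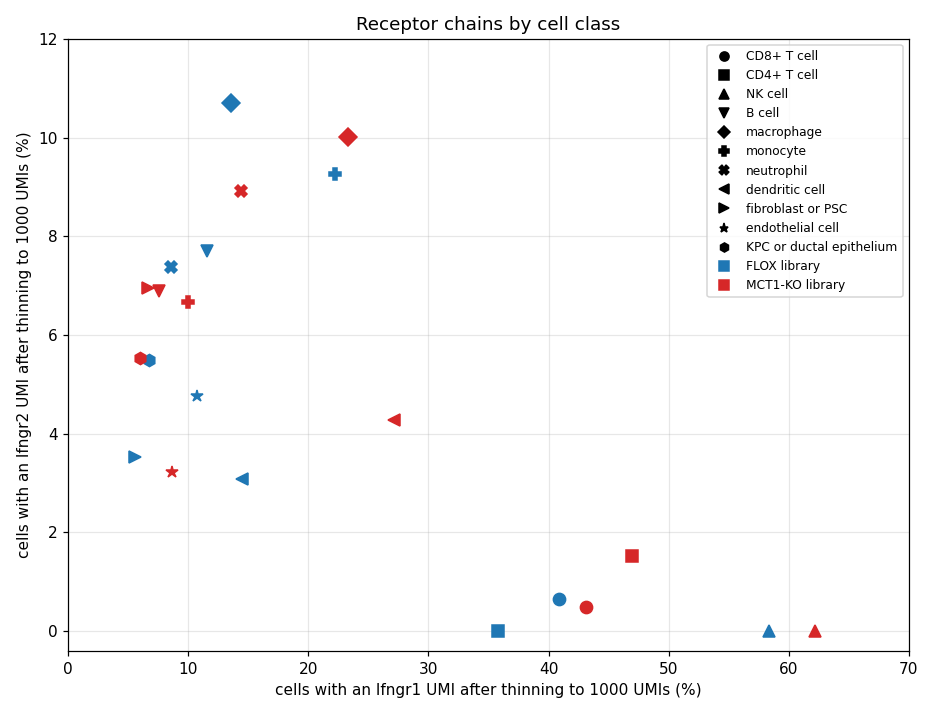
Share of cells (%) with an Ifngr2 UMI against the share with an Ifngr1 UMI, both after thinning to 1000 UMIs, with symbols for cell classes and blue and red for FLOX and the library labelled MCT1-KO. NK cells lie at 58.3% and 62.2% for Ifngr1 and 0% for Ifngr2, and macrophages at 10.7% and 10.01% for Ifngr2.

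Jak1, the kinase bound to IFNGR1 and to many other cytokine receptors, had its highest summed levels over both libraries in NK, B and CD8+ T cells. With both libraries summed its level ran from 37.3 CPM in acinar cells and 39.6 CPM in plasma cells, both below the 53.1 and 55.2 CPM of empty barcodes in FLOX and the library labelled MCT1-KO, to 439 CPM in NK cells, with B cells at 413 CPM and CD8+ T cells at 344 CPM. The summed CD8+ interval of 319 to 371 CPM overlapped that of endothelial cells, at 321 CPM (287 to 359). NK cells were at 654 CPM in FLOX and 291 CPM in the library labelled MCT1-KO, a ratio of 0.445 (0.274 to 0.714) that rests on 48 and 31 UMIs. In the latter library NK cells ranked below B cells (375 CPM), CD8+ T cells (331), other T cells (327), endothelial cells (307) and neutrophils (298), with overlapping intervals. In the fibroblast or PSC class the levels were 230 and 289 CPM, a ratio of 1.25 (1.12 to 1.40). It became 0.967 with free RNA subtracted and the level rescaled to the total left, which lowers every ratio of this class. The KPC or ductal epithelium had 136 and 137 CPM with a ratio of 1.01 (0.974 to 1.05). Jak1 overlaps Raver2 and Gm24468 on the other strand, and reads of these could be mixed if the counting did not use strand. It also overlaps Gm12785 on its own strand, so reads of that gene could not be told apart by strand.

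Jak2, the kinase bound to IFNGR2 and to the receptors of IL-12 and GM-CSF, stood in dendritic cells at 481 CPM in FLOX, its highest level in that library, and at 317 CPM in the library labelled MCT1-KO, a ratio of 0.659 (0.551 to 0.785). Neutrophils went the other way, with 212 and 414 CPM and a ratio of 1.95 (1.67 to 2.29), and were the highest class in the library labelled MCT1-KO. Endothelial cells stood at 85.6 and 146 CPM (ratio 1.71, 1.15 to 2.54) and macrophages at 54.0 and 76.8 CPM (ratio 1.42, 1.29 to 1.57). CD8+ T cells, at 140 and 132 CPM, had a ratio of 0.946 (0.735 to 1.21). It became 0.628 with free RNA subtracted, which includes the same rescaling of every gene as for Ifngr1.

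Socs1, the inhibitor of the receptor kinases, stood at 55.3 CPM in the T cells of FLOX and 84.4 CPM in those of the library labelled MCT1-KO, a ratio of 1.52 (1.16 to 2.00). CD8+ T cells, which make up most of these, had a ratio of 1.42 (1.01 to 2.00). It became 0.997 with free RNA subtracted, again with the rescaling that lowers every ratio of the class. The fibroblast or PSC class stood at 28.4 and 54.7 CPM with a ratio of 1.92 (1.43 to 2.62). Neutrophils were the opposite, at 30.8 and 16.2 CPM, a ratio of 0.525 (0.265 to 0.984) that rests on 41 and 14 UMIs. In the KPC or ductal epithelium Socs1 had 22.1 and 25.7 CPM, close to the 19.8 and 18.5 CPM of empty barcodes. Socs3 had another order, with monocytes highest at 420 and 453 CPM and CD8+ T cells low at 52.9 and 40.2 CPM. It was lower in the library labelled MCT1-KO in macrophages, at 373 and 292 CPM with a ratio of 0.782 (0.747 to 0.818), and in the KPC or ductal epithelium, at 223 and 157 CPM with a ratio of 0.705 (0.684 to 0.726). Empty barcodes moved the same way, at 244 and 183 CPM. In the fibroblast or PSC class Socs3 was higher, at 171 and 340 CPM with a ratio of 1.99 (1.76 to 2.24). Dendritic cells also had more Socs3 in that library, 108 against 68.5 CPM (ratio 1.57, 1.09 to 2.25).

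The members were set against all genes with at least 50 UMIs in a class, in the 8 classes with at least 50 cells per library, with CD8+ T cells in place of all T cells, using a 1.5-fold difference in either direction. In CD8+ T cells 6 members were counted, of which 0 were higher and Ifng alone was lower in the library labelled MCT1-KO, and 6.11% and 10.6% of all genes were higher and lower. In macrophages Ifngr1 was higher and 0 of 6 members were lower, with 6.09% and 9.72% of all genes. In monocytes 0 of 5 were higher and Ifngr2 was lower, with 12.6% and 13.3% of all genes. In neutrophils Ifngr2 and Jak2 were higher and Socs1 lower among 6, where 13.7% and 11% of all genes were. In dendritic cells Ifngr1 and Socs3 were higher and Jak2 and Socs1 lower among 6, where 9.85% and 13.6% of all genes were. The fibroblast or PSC class had Socs1 and Socs3 higher and 0 of 6 lower, with 9.72% and 11.5% of all genes. Endothelial cells had Jak2 higher and 0 of 5 lower, with 7.47% and 13.2%. The KPC or ductal epithelium had 0 of 6 past 1.5-fold in either direction, with 6.25% and 7.51% of all genes. Over the 46 pairs of a member and a class, 8 were higher and 5 lower, and all of these but Socs1 in dendritic cells, at 0.597 (0.311 to 1.08), had an interval that left out 1.

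**Figure D4:**
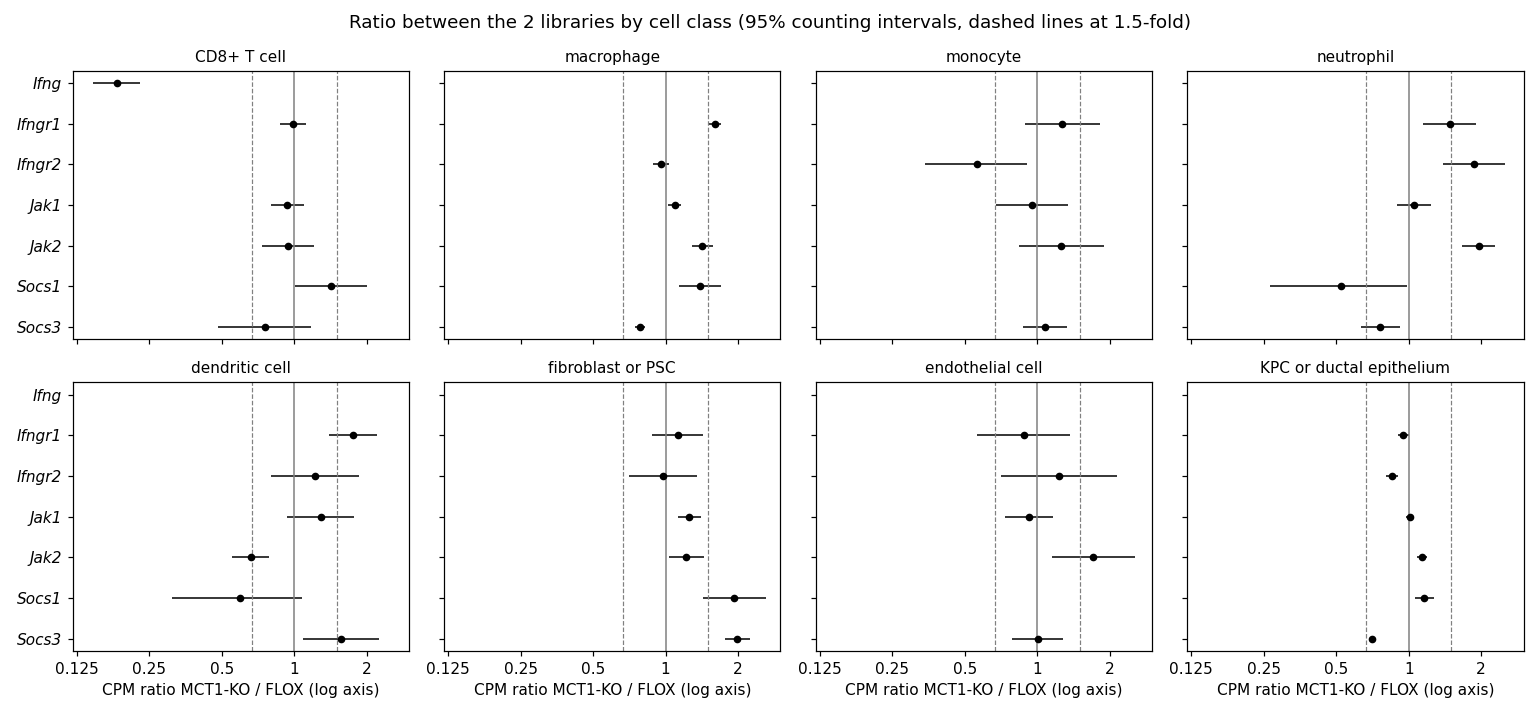
CPM ratio of the library labelled MCT1-KO over FLOX (log axis) for the 7 genes by cell class, with 95% counting intervals as bars. Dashed lines mark 1.5-fold and genes under 50 UMIs in a class are not drawn. Ifng is drawn in CD8+ T cells alone, at 0.184, and Socs1 and Socs3 lie at 1.92 and 1.99 in the fibroblast or PSC class.

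The genes that interferon gamma is known to induce were lower in the library labelled MCT1-KO in several classes. In the KPC or ductal epithelium, 7 of the 15 listed genes with at least 50 UMIs were lower by 1.5-fold and 0 were higher, where 7.51% and 6.25% of all genes were, with a median ratio of 0.673 against 1.01 over all genes there. Cxcl9, a chemokine that draws CXCR3-bearing T cells, stood at 224 and 112 CPM with a ratio of 0.499 (0.483 to 0.515). Cd274, the gene of PD-L1, stood at 32.6 and 16.1 CPM with a ratio of 0.493 (0.452 to 0.538). Endothelial cells had 7 of 10 lower and 0 higher, where 13.2% of all genes were lower. Dendritic cells had 6 of 9 lower with Cxcl10 higher, where 13.6% of all genes were lower. Neutrophils had 5 of 13 lower and Gbp5 higher, where 11% of all genes were lower. In monocytes 1 of 11 was lower, Psmb9, and 1 higher, Cxcl10, with a median of 0.945, where 13.3% and 12.6% of all genes were. In macrophages 1 of 14 was lower, Psmb9 at 0.630 (0.592 to 0.671), and 0 were higher, with a median of 0.888, where 9.72% of all genes were lower and 6.09% higher. The fibroblast or PSC class had 1 of 13 lower and 2 higher, with a median of 1.03, where 11.5% and 9.72% of all genes were. In CD8+ T cells 1 of 11 was lower, which was Cxcl9 at 58.5 and 11.3 CPM, where 10.6% of all genes were lower. The counts in macrophages, monocytes, CD8+ T cells and the fibroblast or PSC class were near the share over all genes.

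The transcription factors of the pathway differed by class. In the KPC or ductal epithelium 5 of 7 were lower and 0 higher, where 7.51% of all genes were lower. Irf1, a response factor, stood there at 512 and 244 CPM with a ratio of 0.477 (0.466 to 0.487). Irf1 in empty barcodes moved the same way, at 239 and 137 CPM. Of the other lower factors, Irf8 stood at 5.64 and 2.99 CPM, below its 40.3 and 20.1 CPM in empty barcodes, and Ciita at 12.2 and 5.48 CPM, close to its 9.61 and 4.59 CPM there, and the part of free RNA in these differences was not tested. In other classes Irf1 had ratios of 0.985 (0.927 to 1.05) in macrophages, 1.19 (0.876 to 1.63) in monocytes and 1.36 (1.18 to 1.58) in neutrophils, and it was lower in endothelial cells, at 0.587 (0.438 to 0.780), and in CD8+ T cells, at 0.564 (0.417 to 0.754). In macrophages 2 of 7 factors were lower and 0 higher, with a median ratio of 0.779, where 9.72% of all genes were lower. There Ciita, the regulator of MHC class II genes, was lower at 52.6 and 15.1 CPM, a ratio of 0.287 (0.240 to 0.343). Of the other negative regulators, 2 of 9 were lower in the KPC or ductal epithelium, Usp18 and Cish. In the fibroblast or PSC class Cish, a SOCS-family inhibitor, was higher at 11.01 and 38.6 CPM with a ratio of 3.51 (2.24 to 5.70), as both SOCS members were. Type I interferons induce many of the same genes. Of the 4 genes listed for type I interferon, its receptor and its kinase, 3 had at least 50 UMIs in the KPC or ductal epithelium, with 0 past 1.5-fold. In macrophages 1 of 4 was higher, which was Ifnb1, the interferon beta gene, at 7.43 and 12.6 CPM with a ratio of 1.70 (1.30 to 2.21), where 6.09% of all genes were higher. The receptor chain gene Ifnar2 was lower in CD8+ T cells, at 0.643 (0.412 to 0.982), and Ifnar1 in endothelial cells, at 0.502 (0.280 to 0.863), each 1 of 2 counted, where 10.6% and 13.2% of all genes were lower. The part of type I interferon in the response genes was not tested. Stress and dissociation genes moved in the same direction, with 7 of 10 lower in the KPC or ductal epithelium, 8 of 10 each in endothelial cells, dendritic cells and CD8+ T cells, 8 of 9 in neutrophils, 6 of 10 in macrophages, 5 of 10 in the fibroblast or PSC class and 3 of 8 in monocytes, and their part in these differences was not tested.

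**Figure D5:**
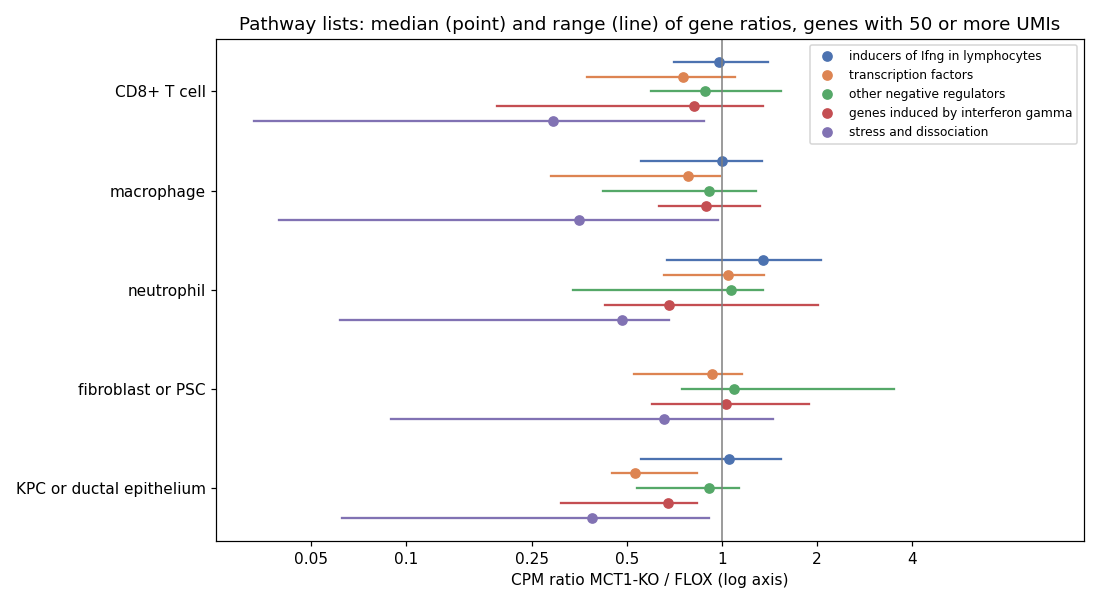
Median (point) and range (line) of the CPM ratios of the library labelled MCT1-KO over FLOX (log axis) for 5 gene lists in 5 cell classes, over genes with at least 50 UMIs. The response genes have a median of 0.673 in the KPC or ductal epithelium and 1.03 in the fibroblast or PSC class, and the stress list lies lowest in each class.

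Genes with the most similar pattern were ranked by Pearson's r of log2(CPM + 10) over 16 points, 8 classes in each of the 2 libraries, among 12699 genes. The points of a library share its depth and free RNA. For Ifng the nearest were Gimap7 (r = 0.998), Gm44174 (0.997) and Cxcr6 (0.994). Only the T cell points, 1 per library, lay far above the added 10 CPM for Ifng, so they largely set its r. Spearman's rho for the same genes was 0.871, 0.936 and 0.794. For Ifngr1 the nearest were Gpr18 (0.940), Gm26510 (0.931) and Znrf2 (0.928). Ifngr2 was nearest to Gab2 (0.867), Tmbim4 (0.849) and Gnaq (0.847). Jak1 was nearest to Nt5e (0.890), Pced1b (0.881) and Ugcg (0.852), and Jak2 to Gm36723 (0.897), Tg (0.886) and Gpr55 (0.849). Socs1 had the lowest values, with Cnot11 (0.859), Zfp54 (0.806) and Poc5 (0.781). Socs3 was nearest to Cxcl10 (0.938), App (0.910) and Eif4ebp1 (0.909).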

How the data were processed

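Single-cell 3′ libraries were made per the labels with a SeekOne kit. The authors deposited raw UMI counts per gene and barcode for all barcodes, with gene and barcode lists as other (text) files, and both libraries hold 32285 mouse genes. The submitters' processing notes name Seurat 4.0.0 and the build GRCh38, which does not match the mouse gene identifiers, so coordinates come from GRCm38 here and are not the authors' build. From the deposited counts, barcodes with at least 500 UMIs, 200 to 5000 genes and a mitochondrial share of up to 8% were kept. Cells were named by the likelihood of 13 fixed marker profiles and a free RNA profile, with at least 2 own markers and a lead of 10 in log likelihood. T cells were split by Cd8a, Cd8b1 and Cd4. UMIs were summed per class and library, and levels are CPM of all UMIs of the class. Intervals are exact Poisson for levels, Clopper-Pearson for shares and conditional exact for ratios, all at 95%. A count of 0 allows 3 counts. A gene entered a ratio count with at least 50 UMIs over both libraries in the class. No test was made, since each label has 1 library. Free RNA was taken from barcodes with 10 to 100 UMIs. Cells were thinned to 1000 UMIs for shares at equal depth. The members and gene lists were chosen with earlier results of these data known. The limits of the class rule were set after class sizes, marker levels and member levels had been seen, and several scoring rules were tried. Genes named outside the members belong to fixed lists or to the 3 most similar genes per member. Alternatives covered the UMI, gene and mitochondrial limits, a stricter class rule and cells with markers of another class. They also covered free RNA subtraction, shared barcodes and the cells with most Ifng. The free RNA share was not the same for all classes. The ratios given correspond to a share per class and library, its acinar marker CPM over that of its empty barcodes. Levels after subtraction were taken over the total left. In CD8+ T cells acinar markers stood at 125 CPM in FLOX and 2005 CPM in the library labelled MCT1-KO. Their empty barcodes had 260 and 13420 CPM. The share taken as free was thus larger in FLOX, and the rescaling alone lowers the ratio of every gene of the class. The interval and class code was checked on simulated counts. Computation used scipy 1.17.1 and numpy 2.4.6 under Python 3.11.15, tables were handled with pandas 2.3.3, and plots were drawn with matplotlib 3.10.9. Some genes of the fixed lists are not reported here.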

Additional observations from a re-analysis of the deposited data

Results flagged for a closer look

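For 3 members the ratio of the library labelled MCT1-KO over FLOX passed 1.5-fold in both directions, in different classes with at least 50 cells per library and at least 50 UMIs of the gene, with intervals that left out 1. Each difference between classes was not tested. Ifngr2 was higher in neutrophils (1.86) and lower in monocytes (0.560). Jak2 was higher in neutrophils (1.95) and endothelial cells (1.71) and lower in dendritic cells (0.659). Socs1 was higher in T cells (1.52) and in the fibroblast or PSC class (1.92) and lower in neutrophils (0.525). Its ratio in CD8+ T cells was 0.997 with free RNA subtracted, which includes the rescaling of every gene of the class. Neutrophils were the shallowest of these classes, with median depths of 1475 and 1074 UMIs.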

How the results depend on the processing

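The ratio of Ifng in CD8+ T cells stayed below 1 under every alternative run. It was 0.489 without cells carrying 3 or more markers of another class, 0.113 with free RNA subtracted, 0.281 over all T cells, 0.236 without the 5 cells with most Ifng UMIs per library, and 0.241 without the single highest cell per library, an alternative chosen after seeing the data. The share of Ifng UMIs held by T and NK cells in FLOX was 86.8% with no upper limit on genes per cell, and it was 96.8% in FLOX and 99.0% in the library labelled MCT1-KO without cells carrying markers of another class. The share of CD8+ T cells with an Ifng UMI was 19.5% and 8.82% after thinning. Ranking by Spearman correlation kept 8 of the 21 most similar genes. Leaving out cells with markers of another class reversed Jak2 in the fibroblast or PSC class (0.834) and Ifngr1 (1.18) and Socs1 (0.892) in the KPC or ductal epithelium. Subtracting free RNA reversed Jak1 in macrophages (0.838) and in the fibroblast or PSC class (0.967), Jak2 in the fibroblast or PSC class (0.969), Socs1 in CD8+ T cells (0.997) and Ifngr1 in T and NK cells together (0.883). In each of these classes the share taken as free was larger in FLOX. Rescaling to the total left then lowers all ratios of the class, also that of Ifng in CD8+ T cells (0.113). These reversals are therefore not particular to the genes named. Beside these reversals, 21 of 52 results moved beyond counting error without cells carrying markers of another class, and 28 did not. With free RNA subtracted 19 moved and 25 did not, and Socs3 had no value in CD8+ T cells, in T and NK cells together or in dendritic cells. With no upper limit on genes 2 moved and 50 did not. Beyond the rescaling under free RNA subtraction, the cause of these changes was not tested. Other limits on UMIs and mitochondrial share, the stricter class rule, leaving out the shared barcodes and a total without mitochondrial, ribosomal, acinar and stress genes left all 52 results within counting error. No paired analysis was possible because each label has 1 library and no result comes from a test, and no library could be left out for the same reason.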

Other observations

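Barcodes with more than 5000 genes were not used in the report. They numbered 2060 in FLOX and 1231 in the library labelled MCT1-KO, and held 57 and 3 Ifng UMIs, or 0.857 and 0.0803 CPM, both below the empty barcodes of their library. Socs3 stood there at 180 and 130 CPM, a ratio of 0.722 (0.698 to 0.747), close to its ratio in the KPC or ductal epithelium.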
